A study of Homo sapiens with 3 samples.

Results

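The genes described here encode the machinery of mitosis: the cyclins and kinases that start it, the spindle checkpoint, the kinetochore, the spindle motors and condensin. They are 51 genes chosen by name from the 19775 genes that the array measured with at least 1 probe set of a single symbol, and of several probe sets for a gene the brightest on average over the arrays was used. All 51 passed the filter on dim genes. The samples were KMS11 cells, an established human multiple myeloma line with the t(4;14) translocation, which drives the histone methyltransferase gene MMSET (current symbol NSD2) from immunoglobulin enhancers. Cells were infected with lentivirus in 8 µg/mL polybrene, given fresh medium after 24 h and collected at 48 h. The groups were shMMSET#2 and shMMSET#4, a pair of short hairpin RNAs against MMSET, and shLuc, the control hairpin named for luciferase, with 1 array each. All 3 groups thus carried the translocation, the virus and a hairpin, and the share of cells infected was not given in the sources used here. Without replicates no difference has a replicate check: genes are called by size, and "higher" and "lower" describe these 3 arrays, whose number limits the precision.

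Mitosis begins when CDK1, bound to cyclin A or cyclin B, is freed from inhibitory phosphorylation by CDC25 phosphatases. Kinetochores, protein assemblies built on centromeric chromatin, bind spindle microtubules, and unattached kinetochores activate the spindle checkpoint, which blocks the anaphase-promoting complex, a ubiquitin ligase. Once the block is lifted, securin and cyclin B are destroyed, separase opens cohesin and the sister chromatids part. Transcripts of this machinery peak late in the cell cycle, so that in a bulk sample fewer cycling cells and less RNA per cell cannot be told apart.

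On its brightest probe set NSD2, the target, had a signal of 7032 with shMMSET#2, 7476 with shMMSET#4 and 10299.8 with shLuc. Over its 6 probe sets, 6 lay below shLuc with shMMSET#2 (median log2 ratio -1.33) and 5 with shMMSET#4 (median -0.48). The plasma cell markers SDC1, TNFRSF17, CD38, XBP1, PRDM1, IRF4, SLAMF7 and FCRL5 were above the floor on every array, with a summed signal of 29318 with shMMSET#2, 54524 with shMMSET#4 and 56619 with shLuc. Of 10 markers of T cells, monocytes and fibroblasts the brightest was COL1A1, with 322, 180 and 197, whereas EPCAM, an epithelial marker, had 4391, 10651 and 8099 with shMMSET#2, shMMSET#4 and shLuc. The median probe set signal was 62.0, 59.5 and 77.4 on these arrays, and the log2 ratio of the 3' to the 5' control probe set of ACTB was 1.14, 1.14 and 1.70. The shLuc array was highest in both, whereas for GAPDH the same ratio was 0.10, 0.00 and 0.04, with shLuc between the hairpins. The part of the ACTB and EPCAM differences in the results was not tested, and values with equal medians are given beside the results.

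Few of the mitotic genes lay far from shLuc with either MMSET hairpin. As deposited, with shMMSET#2, 34 of the 51 were within 1.25-fold of shLuc (66.7%, against 38.7% of all 13296 genes tested), and with shMMSET#4, 28 were (54.9%, against 39.2%). These shares depend on the processing: with the median signal made equal on the 3 arrays 23 of the 51 were within 1.25-fold with shMMSET#2 and 26 with shMMSET#4, against 33.6% and 32.2% of all genes. With shMMSET#4 the share was close to that of all genes with the mean over all probe sets (49.0%, against 47.6%). The same held with a floor at the 60th percentile (54.9%, against 54.5%). It also held with _x_at and _s_at probe sets left out, where 39 members remained and 15 were within 1.25-fold (38.5%, against 37.7%). The median log2 ratio of the 51 was 0.03 with shMMSET#2 and -0.08 with shMMSET#4, beside -0.04 and -0.02 over all genes tested. A small group stood apart: MAD2L1, CENPM, SPC25 and CENPN were at least 1.5-fold higher with each hairpin, CENPE and KIF2C were at least 1.5-fold lower with each, and 45 were neither. Over all genes tested, 8.60% were higher and 11.9% lower by this rule, so 4 of 51 higher and 2 of 51 lower does not exceed the background. Mitotic genes are bright on these arrays: 43 of the 51 lay in the brightest 3 deciles of genes tested, where 9.50% of genes were higher with each hairpin, 5.44% were lower with each, and 45.8% were within 1.25-fold with shMMSET#2 and 48.5% with shMMSET#4. With equal medians, the median log2 ratio of the 51 became 0.35 with shMMSET#2 and 0.30 with shMMSET#4 (0.26 and 0.34 over all genes), 7 members were higher with each hairpin and 0 were lower (19.7% and 5.28% of all genes under that scaling), so the balance of directions depends on the scaling. Both comparisons share the shLuc array. In limma, which treated the hairpins as a group of 2 and shLuc as a group of 1, 0 members and 0 of all genes had an adjusted p under 0.05 (Benjamini-Hochberg, smallest adjusted p 0.519), while 3 members and 1268 of all genes had an unadjusted p under 0.05.

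**Figure D1:**
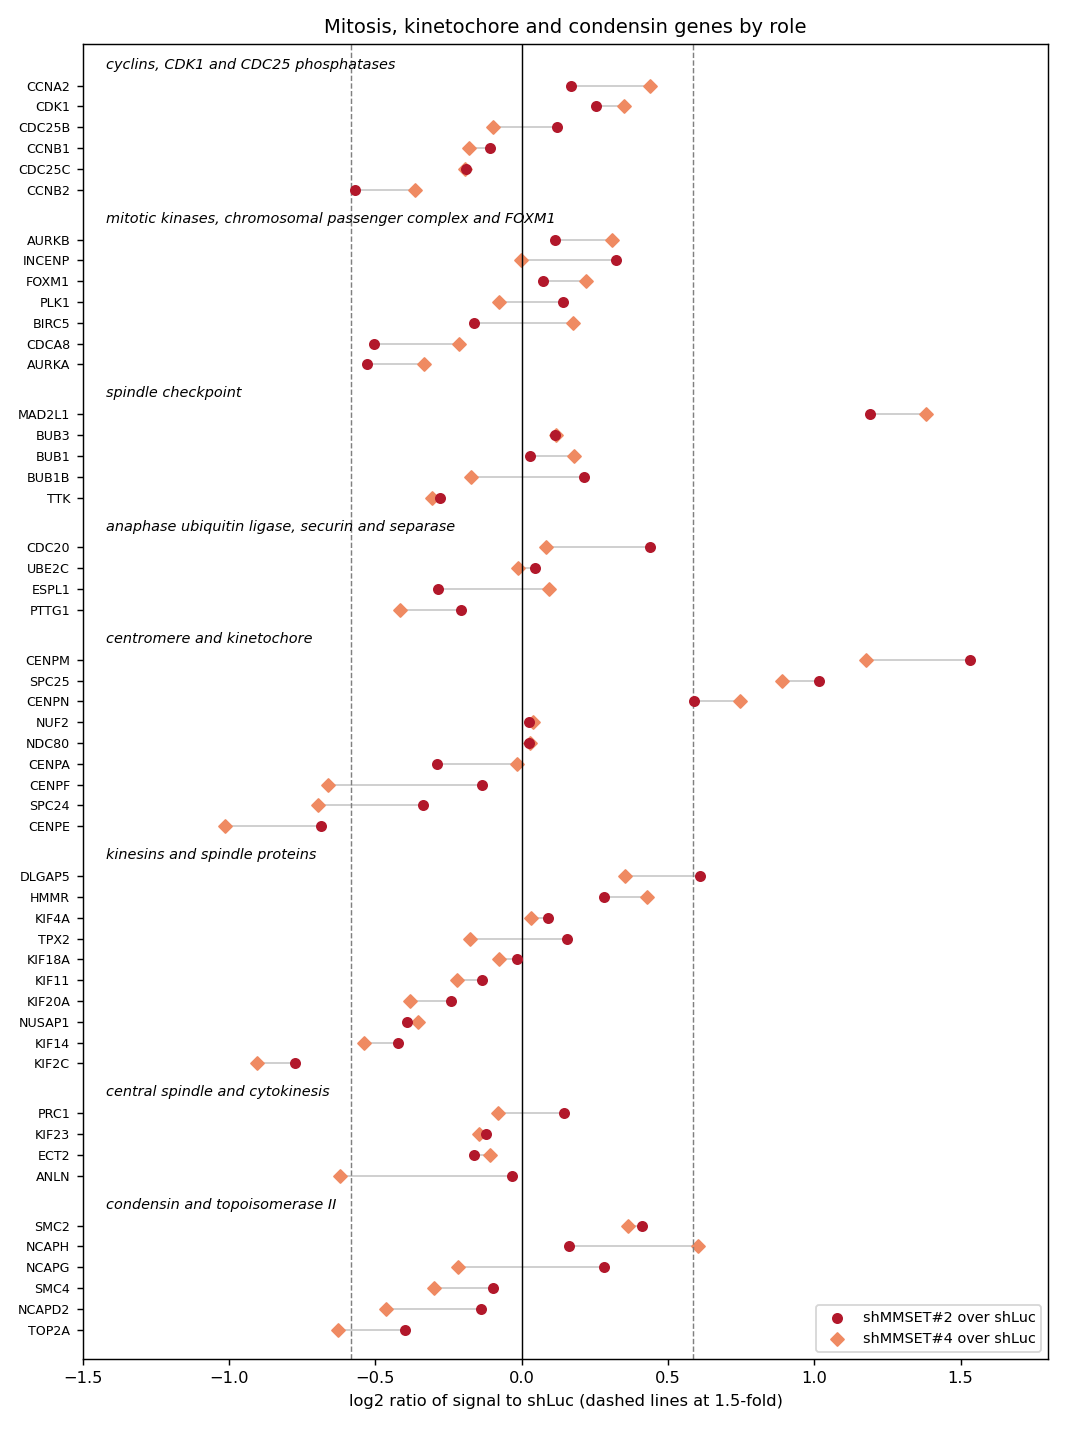
Log2 ratio of signal to shLuc for each of the 51 genes, grouped by role, with shMMSET#2 as circles and shMMSET#4 as diamonds on 1 array each; the solid line marks shLuc and the dashed lines 1.5-fold. Most genes lie between the dashed lines, MAD2L1, CENPM, SPC25 and CENPN lie beyond the right one with both hairpins, and CENPE and KIF2C beyond the left one.

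MAD2L1 encodes the checkpoint protein that, at unattached kinetochores, is converted to the form that captures CDC20. Its signal was 19303 with shMMSET#2, 22069 with shMMSET#4 and 8469 with shLuc. These are 2.28 and 2.61 times the shLuc signal, and its other 2 probe sets were higher too, with log2 ratios of 1.74 and 0.89 with shMMSET#2 and 1.86 and 0.67 with shMMSET#4. The other checkpoint genes did not share this size of difference. BUB1B, which encodes BUBR1, a further part of the checkpoint complex, had signals of 12530, 9581 and 10816 with shMMSET#2, shMMSET#4 and shLuc. BUB1 and BUB3, which form the kinetochore platform of the checkpoint, had log2 ratios of 0.03 and 0.11 with shMMSET#2 and 0.18 and 0.12 with shMMSET#4. A dim BUB3 probe set was at least 0.94 higher on the log2 scale with shMMSET#4 and another was at -0.64, so that its probe sets disagreed in sign at 1.5-fold. TTK, the kinase that starts checkpoint signalling, was at -0.28 and -0.31.

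The centromere and kinetochore genes held the widest spread of any role. CENPM, a subunit of the inner kinetochore network that sits on centromeric chromatin throughout the cell cycle, had a signal of 2159 with shMMSET#2, 1687 with shMMSET#4 and 747 with shLuc, which is 2.89-fold and 2.26-fold higher, on its single probe set. CENPN, an inner kinetochore protein that recognises CENP-A nucleosomes, had 5581, 6232 and 3714 on the probe set used, at 0.59 and 0.75 on the log2 scale. Its other probe sets did not bear this out: their log2 ratios lay between -0.61 and 0.59 with shMMSET#2 and between -0.04 and 0.16 with shMMSET#4. The brightest one ends in _s_at, a kind that can match several transcripts, and when such probe sets and those ending in _x_at were left out CENPN was at -0.61 and -0.04. CENPA, the histone variant that marks the centromere, was at -0.29 and -0.02. CENPE, a kinesin that carries chromosomes to the spindle equator and tethers kinetochores to microtubules, had 4642 with shMMSET#2, 3698 with shMMSET#4 and 7477 with shLuc, and was 1.61-fold and 2.02-fold lower on its single probe set. CENPF, a large protein of the outer kinetochore, was at -0.13 and -0.66, and its 2 other probe sets were lower with both hairpins, at -0.57 and -0.56 with shMMSET#2 and at -0.67 and -1.54 with shMMSET#4.

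The subunits of the Ndc80 complex, the rod that grips the microtubule end, differed from each other. SPC25 had a signal of 2818 with shMMSET#2, 2586 with shMMSET#4 and 1395 with shLuc, 2.02-fold and 1.85-fold higher. SPC24, which pairs with SPC25 at the inner end of the rod, had 656, 511 and 828, which is 1.26-fold and 1.62-fold lower, so the members of this dimer lay on opposite sides of shLuc. NDC80 and NUF2, which form the microtubule-binding end, were close to level as deposited: NDC80 had 7097, 7107 and 6971, and NUF2 had 10804, 10903 and 10609. The log2 ratio of SPC25 exceeded that of SPC24 by 1.35 with shMMSET#2 and by 1.59 with shMMSET#4. This gap does not depend on a common scaling factor, and under quantile normalization it was 1.29 with shMMSET#2, whereas the side of shLuc on which SPC24 lay with shMMSET#2 does: its ratio was -0.34 as deposited and -0.02 with equal medians, where NDC80 was at 0.35 and 0.41.

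**Figure D2:**
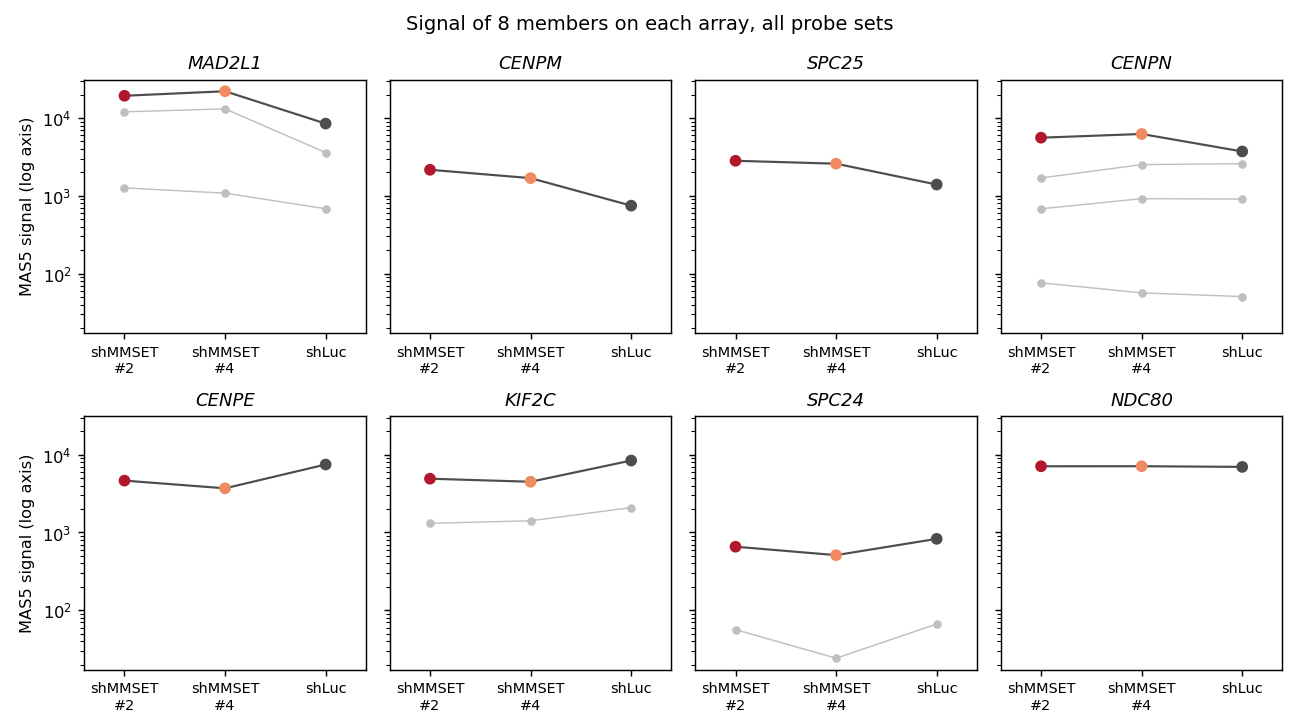
MAS5 signal on a log axis for 8 genes on the shMMSET#2, shMMSET#4 and shLuc arrays, 1 array each; coloured points joined by a dark line are the probe set used and grey points are the gene's other probe sets. MAD2L1, CENPM and SPC25 are higher with both hairpins on every probe set, CENPE, KIF2C and SPC24 are lower on every probe set, NDC80 is level as deposited, and the probe sets of CENPN disagree.

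Transcription of many of these genes is known to be held back early in the cell cycle and released late through a promoter element called CHR, bound by the MuvB complex, and through CCAAT boxes, bound by NF-Y. RefSeq promoter windows of GRCh38.p14 (250 bases before to 50 after the start site) were matched for 43 of the 51 genes. The letters TTTGAA (CHR), read on either strand, were in at least 1 window of 32 of the 43 (74.4%), against 18.2% of all 27305 genes with a window. CCAAT, on either strand, was in 34 (79.1%, against 39.7%), and both were in 25 (58.1%, against 8.37%). Genes with several start sites had several chances to match. The windows of 5 called members (MAD2L1, SPC25, CENPN, CENPE and KIF2C; CENPM is not shown) and of CCNB2 are printed, since these 5 differ in the letters and CCNB2, a member not called, holds several CCAAT boxes beside TTTGAA. They are chr4:120066799-120067098 (minus strand) for MAD2L1, chr2:168890381-168890680 (minus) for SPC25, chr16:81006964-81007263 (plus) for CENPN, chr15:59104896-59105195 (plus) for CCNB2, chr4:103198294-103198593 (minus) for CENPE and chr1:44739587-44739886 (plus) for KIF2C. Each is written 5′ to 3′ along the gene, with TTTGAA and CCAAT, or ATTGG where CCAAT reads on the other strand, in capitals.
MAD2L1: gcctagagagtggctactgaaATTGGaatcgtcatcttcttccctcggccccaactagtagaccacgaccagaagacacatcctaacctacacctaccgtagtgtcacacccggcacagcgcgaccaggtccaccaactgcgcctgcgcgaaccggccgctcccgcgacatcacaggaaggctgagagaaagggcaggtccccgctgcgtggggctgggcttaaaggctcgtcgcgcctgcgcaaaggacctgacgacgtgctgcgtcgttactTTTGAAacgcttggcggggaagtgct
SPC25: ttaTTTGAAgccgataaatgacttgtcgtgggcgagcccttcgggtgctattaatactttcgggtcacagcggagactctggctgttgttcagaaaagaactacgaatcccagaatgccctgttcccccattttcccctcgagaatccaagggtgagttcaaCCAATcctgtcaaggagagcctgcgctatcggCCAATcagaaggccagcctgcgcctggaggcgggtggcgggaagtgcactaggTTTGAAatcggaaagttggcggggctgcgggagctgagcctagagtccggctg
CENPN: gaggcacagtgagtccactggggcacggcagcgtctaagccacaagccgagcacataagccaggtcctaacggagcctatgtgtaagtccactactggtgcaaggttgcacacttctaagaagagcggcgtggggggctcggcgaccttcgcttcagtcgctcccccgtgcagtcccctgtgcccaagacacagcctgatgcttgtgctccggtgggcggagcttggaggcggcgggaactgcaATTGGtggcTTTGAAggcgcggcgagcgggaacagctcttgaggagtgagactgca
CCNB2: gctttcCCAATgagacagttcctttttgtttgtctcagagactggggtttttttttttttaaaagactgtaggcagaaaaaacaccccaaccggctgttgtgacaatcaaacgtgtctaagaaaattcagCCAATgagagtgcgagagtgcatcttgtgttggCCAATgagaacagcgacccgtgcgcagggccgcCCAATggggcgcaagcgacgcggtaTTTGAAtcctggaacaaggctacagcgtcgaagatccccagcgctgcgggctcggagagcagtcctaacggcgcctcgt
CENPE: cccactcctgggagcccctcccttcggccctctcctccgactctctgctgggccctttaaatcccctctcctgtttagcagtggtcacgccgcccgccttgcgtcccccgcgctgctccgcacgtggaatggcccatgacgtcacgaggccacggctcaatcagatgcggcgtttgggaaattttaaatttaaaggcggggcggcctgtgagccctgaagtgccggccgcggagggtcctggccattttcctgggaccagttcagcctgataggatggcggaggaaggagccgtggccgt
KIF2C: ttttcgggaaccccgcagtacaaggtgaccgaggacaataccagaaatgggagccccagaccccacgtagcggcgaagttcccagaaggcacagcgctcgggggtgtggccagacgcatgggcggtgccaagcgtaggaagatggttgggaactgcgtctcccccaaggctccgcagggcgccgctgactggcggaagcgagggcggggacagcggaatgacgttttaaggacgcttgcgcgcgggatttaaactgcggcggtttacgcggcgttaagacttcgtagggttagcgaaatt
MAD2L1 holds TTTGAA with its first base at +25 from the start site, SPC25 at -247 and -3, CENPN at +4 and CCNB2 at -29. CCNB2 holds CCAAT with first bases at -244, -120, -87 and -54, and SPC25 at -88 and -56. The windows of CENPE and KIF2C hold neither set of letters. Apart from TTTGAA, and TTCGAA in a wider count, other forms of the CHR were not searched, so the element may still be present in them. Among the 38 other members with a window, which were not called in either direction, 29 held TTTGAA and 31 held CCAAT, so the letters were also common in members that were not called. Matches describe letters in a window and are not evidence of binding.

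Cyclins, CDK1 and the CDC25 phosphatases lay on both sides of shLuc, inside 1.5-fold. CDK1, the kinase that drives entry into mitosis, had a log2 ratio of 0.26 with shMMSET#2 and 0.35 with shMMSET#4, and its other 3 probe sets were between 0.37 and 0.65, the highest past 1.5-fold with shMMSET#4. CCNA2 was at 0.17 and 0.44, and CCNB1 at -0.11 and -0.18. CCNB2 lay lowest in this role, with signals of 11984, 13805 and 17793 with shMMSET#2, shMMSET#4 and shLuc, 1.48-fold and 1.29-fold lower. Its other 2 probe sets are dim and were also lower, and with the mean over all probe sets CCNB2 passed 1.5-fold with both hairpins (-0.77 and -0.69), whereas with equal medians it was at -0.25 and 0.01. CDC25B had 3445, 2962 and 3168, and CDC25C was at -0.19 with each hairpin. On the probe sets used, none of these 6 genes reached 1.5-fold with either hairpin.

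Mitotic kinases and the chromosomal passenger complex, which corrects faulty attachments, were likewise inside 1.5-fold on the probe sets used. AURKA, the centrosomal kinase that matures the spindle poles, was lowest, with 10282 with shMMSET#2, 11759 with shMMSET#4 and 14840 with shLuc, 1.44-fold and 1.26-fold lower. TPX2, which activates that kinase on the spindle, had 6531, 5198 and 5870. The passenger subunits differed in sign as deposited: AURKB, the kinase, was at 0.11 and 0.31, INCENP, the scaffold, at 0.32 and 0.00, CDCA8, which encodes borealin, at -0.51 and -0.22, and BIRC5, which encodes survivin, had 4857, 6130 and 5435. The other BIRC5 probe sets were lower with both hairpins, between -0.40 and -0.24 with shMMSET#2 and between -0.44 and -0.19 with shMMSET#4. PLK1 was at 0.14 and -0.08. FOXM1, a transcription factor that activates many late cell cycle genes, was at 0.07 and 0.22, on a probe set ending in _x_at.

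On the probe sets used, genes of anaphase control were inside 1.5-fold. CDC20, the activator of the anaphase-promoting complex, lay furthest from it with shMMSET#2, at 1.35 times the shLuc signal, and at 1.06 times with shMMSET#4. UBE2C, the ubiquitin-conjugating enzyme that serves this complex, had 16166, 15518 and 15655. PTTG1, which encodes securin, had 11868, 10287 and 13715 on a probe set ending in _x_at, and close copies of the gene make this value uncertain. ESPL1, which encodes separase, was at -0.29 and 0.09, and its other probe set was at -0.61 and 0.02, past 1.5-fold with shMMSET#2.

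Among spindle motors, KIF2C, a kinesin that dismantles microtubules at centromeres, was lowest, with signals of 4914 with shMMSET#2, 4487 with shMMSET#4 and 8409 with shLuc. It was 1.71-fold and 1.87-fold lower, and its other probe set was 1.59-fold and 1.48-fold lower. KIF14 came next, at -0.42 and -0.54, with its other probe set at -0.31 and -0.35. KIF11, which slides spindle microtubules apart, was at -0.14 and -0.22, KIF4A at 0.09 and 0.03, KIF18A at -0.01 and -0.08, and KIF20A at -0.24 and -0.38. DLGAP5 and HMMR, which stabilise spindle microtubules, were on the high side, DLGAP5 at 0.61 and 0.35 and HMMR at 0.28 and 0.43, and NUSAP1, which bundles them, was at -0.39 and -0.35. Scaling to the same median moved KIF2C to -0.46 and -0.53 and CENPE to -0.37 and -0.64, still below 0 but no longer past 1.5-fold with both hairpins.

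Genes of the central spindle and of cytokinesis were near shLuc with shMMSET#2, where all 4 were within 1.12-fold on the probe sets used. PRC1, which bundles the midzone microtubules, had 12643, 10821 and 11441. ANLN, the scaffold of the contractile ring, had 9237 with shMMSET#2, 6147 with shMMSET#4 and 9456 with shLuc, so the shMMSET#4 array lay 1.54-fold below shLuc while the shMMSET#2 array lay 1.02-fold below. KIF23 and ECT2, which position and start the ring, were at -0.12 and -0.16 with shMMSET#2 and -0.15 and -0.11 with shMMSET#4.

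Condensin, which folds mitotic chromosomes, showed unequal subunits. On the probe sets used they were inside 1.5-fold, except NCAPH, which was 1.52-fold higher with shMMSET#4. SMC2 was at 0.41 and 0.36, and SMC4, its partner in the core, at -0.10 and -0.30. A dimmer SMC2 probe set was 1.59-fold higher with shMMSET#2, and a dimmer SMC4 probe set was 1.54-fold lower with shMMSET#4. Of the other subunits of condensin I, NCAPH was at 0.16 and 0.60, NCAPD2 at -0.14 and -0.46, and NCAPG had 7067, 4996 and 5814. TOP2A, the topoisomerase that untangles sister chromatids, had 21242 with shMMSET#2, 18139 with shMMSET#4 and 28043 with shLuc, 1.32-fold and 1.55-fold lower, and its other 2 probe sets were lower as well.

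In the direct comparison, which does not use the shLuc array, the members differed little between the hairpins. With shMMSET#4 against shMMSET#2, 37 of the 51 were within 1.25-fold (72.5%, against 46.1% of all genes tested), and none was 2-fold higher or lower, where 6.60% and 3.72% of all genes were. The median gene differed by 1.14-fold in either direction among the members and by 1.28-fold over all genes, and 95% of members were within 1.39-fold and 95% of all genes within 2.37-fold. Among tested genes in the brightest 3 deciles, 95% were within 1.98-fold. This difference is the only measure of spread, and it also holds real differences between the hairpins. The folds of MAD2L1 and CENPM against shLuc exceeded 1.98-fold with both hairpins, those of SPC25 and CENPE with 1 hairpin each, and those of KIF2C and CENPN with neither. That limit leaves out the shLuc array. Against shLuc, 95% of the genes in the brightest 3 deciles were within 2.41-fold with shMMSET#2 and 2.24-fold with shMMSET#4. CENPM exceeded these limits with both hairpins, MAD2L1 with shMMSET#4 only, and SPC25, CENPE, KIF2C and CENPN with neither. ANLN was the one member past 1.5-fold in this comparison, lower with shMMSET#4 at -0.59, where 13.6% of all genes were lower and 16.9% higher. NCAPG and CENPF followed, with log2 ratios of -0.50 and -0.53.

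At 2-fold, 3 members were higher with shMMSET#2 (5.69% of all genes were), namely MAD2L1, CENPM and SPC25, and 0 were lower (10.7% of all genes). With shMMSET#4, 2 were higher, MAD2L1 and CENPM (6.74% of all genes), and 1 was lower, CENPE (8.95%). At 1.5-fold, 2 members were lower and 5 higher with shMMSET#2, beside 22.5% and 16.2% of all genes. With shMMSET#4, 6 were lower and 5 higher, beside 20.6% and 17.3%.

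Other genes of cell division were set beside the members, from lists that do not overlap with them. Of 32 other kinetochore and checkpoint genes tested, 6 were at least 1.5-fold higher with each hairpin and 0 were lower, with median log2 ratios of 0.32 with shMMSET#2 and 0.21 with shMMSET#4, beside 8.60% higher and 11.9% lower over all genes. Among the 6, CENPT passed the filter on dim genes only through the hairpin arrays, and 5 were higher without it. TRIP13, the ATPase that turns MAD2L1 protein back to its inactive form, had signals of 3692, 6671 and 1964 with shMMSET#2, shMMSET#4 and shLuc. ZWINT, an outer kinetochore protein, was 2.31-fold and 1.92-fold higher, and SKA2, which helps the Ndc80 complex to hold microtubules, was 2.18-fold and 1.96-fold higher. CENPT, which recruits the Ndc80 complex to the inner kinetochore, had 134 and 121 with the hairpins and a shLuc signal under the floor of 41.2, so it was at least 3.26-fold higher with shMMSET#2 and at least 2.95-fold with shMMSET#4, and its other probe set gave no ratio. Of 16 cohesin and other condensin genes, 1 was higher with each hairpin, the cohesin acetyltransferase gene ESCO2 (2.32-fold and 1.81-fold), whose 3 other probe sets spanned -0.52 to 2.36 with shMMSET#2. None of 16 genes of the anaphase-promoting complex passed in either direction. Of 23 other regulators of mitotic entry and exit, 2 were higher, CDC25A (1.53-fold with each) and LIN52, a MuvB subunit gene (1.59-fold with each), and of 26 other spindle and cytokinesis genes, SPAG5 and the microtubule destabiliser STMN1 were higher (STMN1 3.86-fold and 2.45-fold, with its dimmer probe set at 0.40 and 0.00) and the kinesin gene KIF20B was lower (1.70-fold and 1.74-fold). These counts depend on the scaling. With equal medians 15 of the 32 kinetochore genes and 4 of the 16 genes of the anaphase-promoting complex were higher with each hairpin. Over all genes 19.7% were higher under that scaling, and KIF20B no longer passed as lower.

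The DNA replication list lay higher than the mitotic members on the same arrays. Of its 43 genes, 17 were at least 1.5-fold higher with each hairpin and 0 were lower, beside 8.60% and 11.9% of all genes. Median log2 ratios were 0.61 and 0.56, against 0.03 and -0.08 for the mitotic members, of which 4 of 51 were higher. All 6 genes of the MCM2 to MCM7 helicase were among the 17, and CDC45, which joins the helicase when it fires, had 881, 1357 and 335. With equal medians the replication medians were 0.93 and 0.94, where all genes were at 0.26 and 0.34. That scaling moves every ratio of unfloored signals by the same amount per hairpin, so it does not check the gap between lists. After quantile normalization the replication medians were 0.58 and 0.54, and those of all genes 0.01 and 0.04. With 1 array a group, this difference between lists has no test. The promoter letters differed as well: TTTGAA was in 1 of 37 replication genes with a window (2.70%, against 74.4% of the members), while TTTCCCGC or TTTGGCGC, forms of the site of E2F factors chosen after the values were seen, was in 17 (45.9%, against 4.65% of the members and 2.75% of all genes). None of the higher members with a window (MAD2L1, SPC25 and CENPN) held these exact letters. Other forms of the E2F site were not searched, so such a site may still be present.

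**Figure D3:**
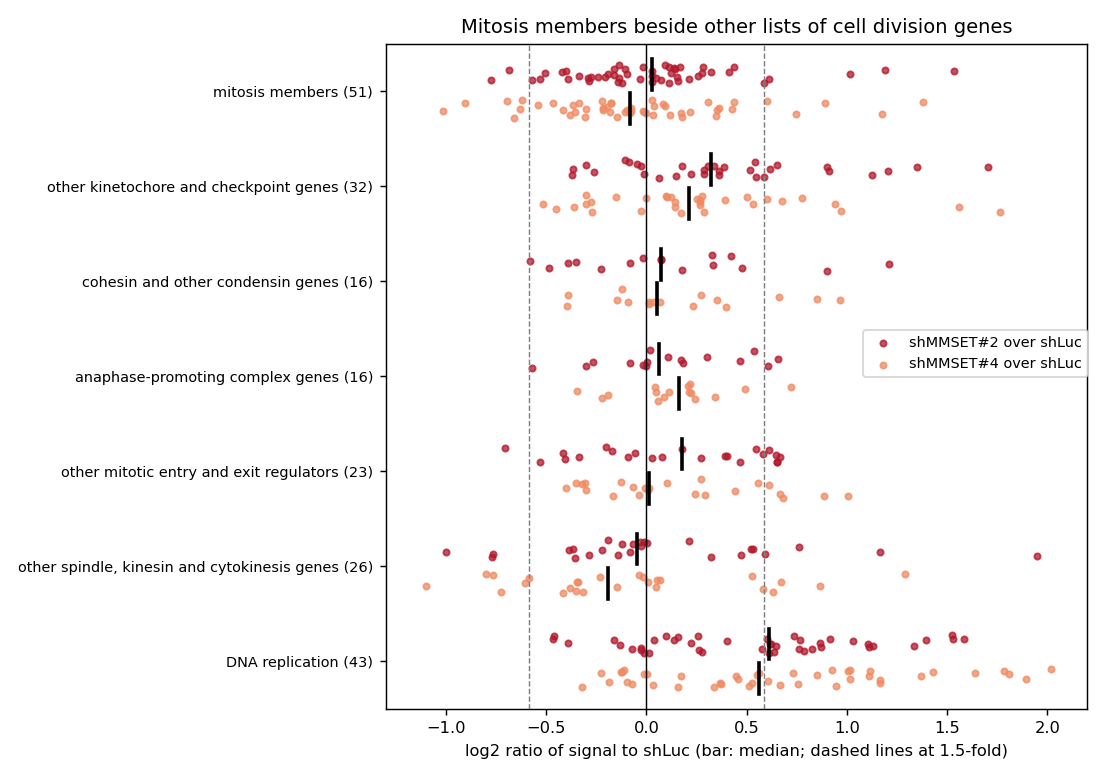
Log2 ratio of signal to shLuc for each tested gene of the mitotic members and of 6 other lists, with the number of genes in brackets, shMMSET#2 above shMMSET#4 in each list and the median as a bar. The mitotic medians lie at 0.03 and -0.08, and those of DNA replication at 0.61 and 0.56.

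**Figure D4:**
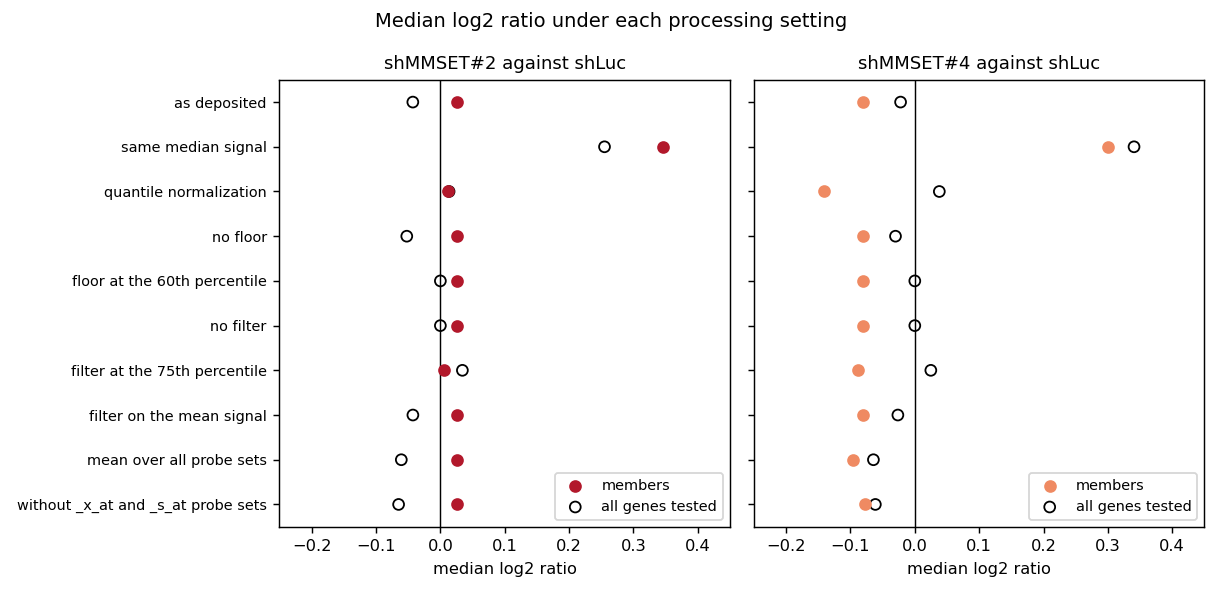
Median log2 ratio to shLuc of the mitotic members (filled) and of all genes tested (open) under the deposited scaling and 9 other settings, for shMMSET#2 at left and shMMSET#4 at right. Scaling to the same median signal moves both to the right, to 0.35 and 0.26 with shMMSET#2 and to 0.30 and 0.34 with shMMSET#4.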

How the data were processed

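Total RNA from 3 KMS11 samples was labelled with biotin from 100 ng input and hybridised to Affymetrix arrays, per the labels. The deposited values are linear MAS5 intensities per probe set. They were made with MAS5, per the submitters' processing notes, and GeneSpring is the software that the design text names, both with no version stated in the labels. The 2% trimmed mean was 500.1 on each array, so the authors' values were already scaled. The design text names another array of this family, whereas the 54675 probe sets carry identifiers of HG-U133 Plus 2.0 and were named through that annotation. Symbols were looked up by Entrez identifier for 41037 of the 41091 that have 1 symbol. Another 1801 have several symbols, 11721 none, and 62 are controls. Scaling to a common mean fixes the total, so a ratio is relative to the rest of the array.

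Signals were floored at the 40th percentile, 41.2, and log2-transformed. A gene was tested if its probe set exceeded the array's median on at least 1 array (13296 of 19775 genes). Calls were 2-fold for 1 comparison and 1.5-fold where both hairpins were required. Ratios against a signal at the floor are bounds, written "at least". The members and lists were chosen with earlier results of these data known. Signals on every array are given for members called in any comparison and for the members of each role with the largest and smallest absolute mean log2 ratio, and up to 4 called genes of each other list are named; CENPF, SPC24, NUF2 and other members described by ratios, and the grouping of the Ndc80 complex, were added after values were seen. Python 3.11.15, numpy 2.4.6, pandas 2.3.3, scipy 1.17.1, matplotlib 3.10.9 and limma 3.58.1 in R 4.3.3 were used. On simulated data with 13296 genes, 100% of 50 genes set 4-fold higher and 98.0% of 50 set 2.5-fold higher were called with both hairpins, and 0.596% of unchanged genes were. The simulated noise was a chosen value, the floor and the filter were left out, and the changed genes were drawn from bright ones. These shares check the counting and are not error rates of these arrays. The alternatives were scaling to equal medians, quantile normalization, other floors and filters, the mean over all probe sets, leaving out _x_at and _s_at probe sets, other thresholds, limma, and a wider CHR motif.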

Additional observations from a re-analysis of the deposited data

How the results depend on the processing

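No paired analysis was possible because each group had 1 array. With the median signal made equal across arrays, the members' median log2 ratio was 0.35 with shMMSET#2 and 0.30 with shMMSET#4. With shMMSET#4, 4 members were then 2-fold higher and 0 lower, and with both hairpins 7 were 1.5-fold higher (HMMR, DLGAP5 and SMC2 joined the 4) and 0 lower, beside 19.7% and 5.28% of all genes. NSD2 was then at -0.23 and -0.0817 on its brightest probe set, against -0.55 and -0.46 as deposited. With the mean over all probe sets NSD2 was at -1.48 and -0.57. CCNB2 and TOP2A were then lower with both hairpins in addition, which made 4 members, beside 8.75% of all genes. Without _x_at and _s_at probe sets 39 members remained, and NSD2 was at -2.45 and -1.62. Of the 39, 3 were 2-fold lower with shMMSET#4 and 1 was 2-fold lower with shMMSET#4 than with shMMSET#2. CENPN turned to -0.61 with shMMSET#2, against 0.59 as deposited, and to -0.0430 with shMMSET#4, against 0.75. These changes follow from which probe sets stand for a gene. With equal medians and with other choices of probe set, shares of all genes at 2-fold were not computed.

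A threshold of 1.5-fold gave 2 members lower and 5 higher with shMMSET#2, 6 lower and 5 higher with shMMSET#4, and 1 lower with shMMSET#4 against shMMSET#2. A threshold of 3-fold gave 0 in every comparison. With both hairpins, a threshold of 2-fold gave 0 lower and 2 higher, and 3-fold gave 0 of each. Shares of all genes were not computed at 3-fold, nor at 2-fold with both hairpins. In limma, 0 members were lower and 0 higher at an adjusted p under 0.05, with 3 at an unadjusted p under 0.05. MAD2L1, CENPM and SPC25 were higher with both hairpins under each of the 9 other settings of scaling, floor, filter and probe set, and CENPN under 6 of them. CENPE and KIF2C were lower with both under each of the 9 but scaling to the same median. CENPM, SPC25 and CENPE each have a single probe set well above the floor. Only the changes of scaling could move their ratios, so the settings of floor, filter and probe set are no check on them. With TTCGAA also counted as CHR, 34 members matched in place of 32. Signals near the floor limit the dim probe sets most.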

Other observations

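Of 13 inner kinetochore genes, grouped after their values were seen and including the members CENPM and CENPN, 5 were at least 1.5-fold higher with each hairpin and 0 were lower, with median log2 ratios of 0.39 with shMMSET#2 and 0.39 with shMMSET#4. Over all genes 8.60% were higher and 11.9% lower. The 5 include CENPT, which passed the filter only through the hairpin arrays (4 without it), and CENPN, whose call was lost in 3 other settings. With equal medians 9 were higher (19.7% of all genes under that scaling), and after quantile normalization 4 (10.8% of all genes). CENPH, a neighbour of CENPM in this network, had signals of 2813 with shMMSET#2, 1765 with shMMSET#4 and 1103 with shLuc. CENPW, the histone-fold partner of CENPT, had 5415, 4965 and 2902. CENPU was 1.46-fold and 1.31-fold higher, and CENPL was 1.03-fold and 1.11-fold lower. CENPI was 1.08-fold and 1.28-fold lower.

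Several dimmer probe sets of members lay further from shLuc with shMMSET#4 than the probe set used. For KIF23 the dimmer probe set was at -0.59 with shMMSET#2 and -1.54 with shMMSET#4, for AURKB at 0.06 and -1.05, and for CDC25C at 0.07 and -1.36. Of 47 other probe sets of members, 39 were above the floor on all arrays, and the probe sets of 2 members, BUB3 and CENPN, disagreed in sign at 1.5-fold.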
